A study of Mus musculus with 2 samples.

Results

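The genes that encode mitochondrial ribosomal proteins were taken as every gene whose symbol begins with Mrpl or Mrps followed by a digit and that had at least 200 unique molecular identifiers (UMIs, 1 per captured transcript end) over both libraries. The pattern matched 77 of the 27998 genes in the deposited tables, and 76 passed the minimum, of 10380 genes that passed it in all. Mrpl53 was the member left out, with 15 UMIs under DMSO and 11 under Idoxuridine. By symbol, 47 of the 76 genes belong to the large subunit (Mrpl) and 29 to the small subunit (Mrps).

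The cells were mouse embryonic stem cells of the male line E14, with the strain labelled C57BL/6, grown on gelatin without feeder cells in 2i/LIF medium, which holds pluripotent cells in the naive state. The control group received DMSO, the solvent, for 24 h. The treated group received 10 µM Idoxuridine, a thymidine analogue that is built into DNA, for 24 h, although 1 protocol field gives the dose as 10 mM. Each group is 1 library of 1 line on the 10x Genomics 3′ V2 platform, so no test between treatments was possible and the difference has no replicate check.

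The mitochondrial ribosome sits in the mitochondrial matrix and translates the few messenger RNAs that the mitochondrial genome still encodes, all of them for subunits of the respiratory chain and ATP synthase. Its ribosomal RNAs come from the mitochondrial genome, whereas all of its proteins are encoded in the nucleus, made in the cytosol and imported. Some of these proteins descend from bacterial ribosomal proteins and others have no bacterial counterpart.

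The DMSO library held 811 cells and 40818344 UMIs, with a median of 44502 UMIs per cell, and the Idoxuridine library held 742 cells and 30454626 UMIs, with a median of 37425. The libraries had 2 cell barcodes in common. All 12 embryonic stem cell markers passed the minimum of 200 UMIs, and their summed level was 6794 counts per 1000000 UMIs (CPM) in DMSO and 4886 in Idoxuridine. Markers of other cells were higher in sum in Idoxuridine: the 7 primitive endoderm markers summed to 2.60 CPM in DMSO and 16.3 CPM in Idoxuridine, the 7 trophectoderm markers to 152 and 247 CPM, and the 7 fibroblast markers to 0.710 and 11.6 CPM. Of the fibroblast markers, Col1a1, Col3a1 and Postn were at 0 in DMSO and Postn also in Idoxuridine. The 5 markers of 2-cell-embryo-like cells were all at 0 in DMSO and summed to 0.0657 CPM in Idoxuridine. Transcripts that stay in the nucleus, used as a sign of RNA quality, summed to 3306 CPM in DMSO and 5412 CPM in Idoxuridine. The part of these markers in the results below was not tested, except where values within matched cells are given.

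Promoters of 67 of the 76 members were found in RefSeq's table for GRCm38.p6 as 300-base windows, from 250 bases before to 50 bases after the gene start. Short motifs of factors known for nuclear genes of mitochondria were searched on both strands, and no motif contains another. The ETS core CCGGAAG, read by ETS family factors such as GABP, stood in 22 of the 67 windows (32.8%) and in 20.8% of all 7887 windows of tested genes. The core GCGCATGC, read by nuclear respiratory factor 1 (NRF1), stood in 8 windows (11.9%), against 6.38% of all windows. The letters AAGATGGC, found in YY1 sites, stood in 12 windows (17.9%), against 5.40%. The GC box GGGCGG was in 50.7% of member windows and 68.0% of all windows, the E-box CACGTG in 7.46% and 11.01%, the CCAAT box in 38.8% and 39.7%, and the TATA box TATAAA in 5.97% and 6.20%. These are matches of letters, with no measurement of binding.

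The 150 bases upstream of 4 members whose windows hold the ETS core are shown, 5′ to 3′ on the strand of the gene, because this was the motif of the mitochondrial factors that the most members had. Capitals mark the ETS core and, in Mrpl22, also the NRF1 core. The 4 were chosen after their motifs were seen. They lie at chr11:58171511-58171660 (plus strand, Mrpl22), chr14:54426759-54426908 (plus, Mrpl52), chr9:98601680-98601829 (minus, Mrps22) and chr17:46110836-46110985 (plus, Mrps18a) of GRCm38.p6.
Mrpl22: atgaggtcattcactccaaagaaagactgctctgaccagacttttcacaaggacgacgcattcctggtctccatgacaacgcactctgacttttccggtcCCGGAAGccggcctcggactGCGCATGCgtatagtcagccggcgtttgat
Mrpl52: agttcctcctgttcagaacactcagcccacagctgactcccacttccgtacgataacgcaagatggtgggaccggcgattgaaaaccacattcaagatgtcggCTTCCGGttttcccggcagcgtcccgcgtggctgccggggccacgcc
Mrps22: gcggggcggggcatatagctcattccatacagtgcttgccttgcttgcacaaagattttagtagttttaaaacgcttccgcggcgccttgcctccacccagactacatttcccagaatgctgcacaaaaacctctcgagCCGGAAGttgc
Mrps18a: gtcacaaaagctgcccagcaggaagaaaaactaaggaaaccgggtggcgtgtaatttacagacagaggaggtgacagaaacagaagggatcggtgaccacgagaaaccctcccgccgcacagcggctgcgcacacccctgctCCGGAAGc
The core was in 12 of 41 large subunit windows and 10 of 26 small subunit windows. Mrpl22 was at 57.2 CPM in DMSO and 48.3 CPM in Idoxuridine, Mrps22 at 68.0 and 58.3 CPM and Mrps18a at 73.7 and 59.9 CPM, each with Poisson intervals apart. Mrpl52 stood at 44.9 CPM and 46.6 CPM, with intervals that overlapped. Its ratio turned below 0 with TMM or median-of-ratios library sizes.

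The members were spread over 17 of the 21 autosomes and sex chromosomes. Of the 76, 18 (23.7%) start within 1000 bases of a protein-coding gene that runs the other way, compared with 1153 of 10172 tested protein-coding genes (11.3%). Mrps12, for the protein of the decoding centre, starts 172 bases from Sars2, the mitochondrial seryl-tRNA synthetase. Mrps12 was at 112 CPM in DMSO and 86.7 CPM in Idoxuridine, and Sars2 at 47.6 and 46.4 CPM. Reads of the 12 members that overlap a gene on their own strand could have been split or shared between genes. Mrps6, Mrps18c, Mrps24, Mrps34, Mrpl2 and Mrpl33 are among the 12, so their values are less certain. A further limit holds for the 34 members that overlap a gene on the other strand, among them Mrpl47, Mrps26, Mrps18b and Mrpl36, since the sources do not say whether counting used the strand. Transcripts of 10 members resembled another counted gene in a search of both strands. In all of these except Mrps26 the similar gene was one that overlaps the member on the other strand (for Mrpl43, Twnk, counted as Peo1). For them, Mrpl47, Mrpl19, Mrps18b, Mrps25 and Mrps30 included, this is the same limit. Mrps26 resembled 21 counted genes, so its value is also less certain.

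Levels of single members ran from 21.8 CPM (Mrps6) to 410 CPM (Mrpl18) in DMSO, an 18.8-fold range, although the assembled ribosome holds 1 copy of most of these proteins. UMIs count each captured 3′ end once whatever its length, so CPM values were compared between genes without dividing by length. The 10th and 90th percentiles of the members were 38.2 and 182 CPM. The order was similar in both libraries, with a Pearson correlation of log2 CPM of 0.97 over 76 genes, which share the 2 libraries and their depths. Of 75 neighbours in the order, 64 in DMSO and 65 in Idoxuridine had overlapping Poisson 95% intervals, so most adjacent ranks could not be told apart at this depth.

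The 5 members with the highest level in DMSO held 18.5% of all member UMIs (exact binomial 95% interval 18.4 to 18.6). These were Mrpl18 (410 CPM), Mrpl12 (329 CPM), Mrpl15 (320 CPM), Mrpl28 (256 CPM) and Mrps18b (232 CPM). Mrpl12 builds the flexible stalk that recruits translation factors, and Mrpl18 and Mrpl15 are homologues of the bacterial proteins uL18 and uL15. The 3 lowest were Mrps21 (25.8 CPM), Mrpl41 (23.8 CPM) and Mrps6 (21.8 CPM), the first and last of them homologues of bacterial small subunit proteins and Mrpl41 a protein with no bacterial counterpart. In Idoxuridine these 5 genes held 17.2% (17.1 to 17.4).

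**Figure D1:**
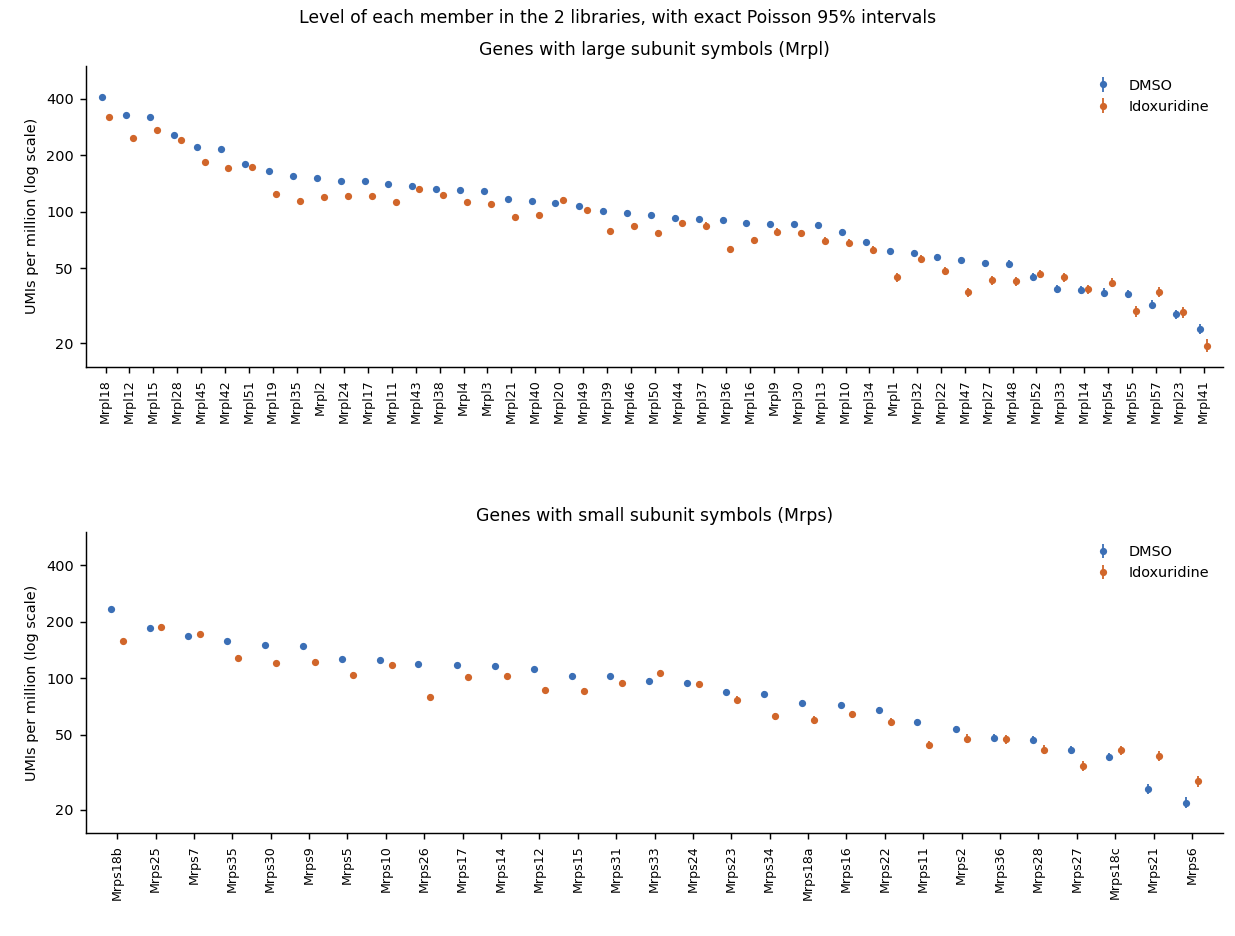
Level of each of the 76 members in CPM (log axis), large subunit symbols above and small subunit symbols below, in order of the DMSO value. Points are the 2 libraries and bars exact Poisson 95% intervals, often smaller than the points. Mrpl18 is highest at 410 CPM and Mrps6 lowest at 21.8 CPM in DMSO, and most Idoxuridine points lie below their DMSO points.

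Summed over the 76 genes, member transcripts were 8364 CPM in DMSO and 7171 CPM in Idoxuridine, a log2 ratio of -0.22 (95% counting interval -0.23 to -0.21). The ratio was below 0 for 63 of the 76 members and for 39.7% of the 10380 genes with at least 200 UMIs. With intervals apart, 56 members were lower in Idoxuridine and 6 were higher, whereas 22.5% of all genes were lower and 39.1% higher by the same rule. With TMM library sizes the counts were 62 lower and 2 higher members, against 30.2% and 30.8% of all genes. The median member ratio was -0.23 (interquartile range -0.31 to -0.09), and the median of all genes was 0.09. These intervals cover counting error only.

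The members were also set beside the 3002 other genes between their 10th and 90th percentiles of level. Those genes had a median ratio of -0.01, with 52.4% below 0 and 35.4% lower with intervals apart, while the members had 82.9% below 0 and 73.7% lower with intervals apart. With genes matched instead on the mean CPM of both libraries, a comparison added after the data were seen, the 3059 other genes had a median of 0.0048, with 49.4% below 0 and 33.4% lower with intervals apart.

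A difference of at least 0.5 log2 with intervals apart was rarer. It was reached in the lower direction by 4 members, against 4.2% of all genes, and in the higher direction by 1 member, against 18.8% of all genes. With median-of-ratios library sizes the counts were 7 and 0 members, against 6.45% and 15.3% of all genes. The shift was thus small in most members and shared by many of them.

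The 4 lower members came from both subunits. Mrpl47, a homologue of uL29 at the exit of the peptide tunnel (chromosome 3, 32725397 to 32737605, GRCm38), was at 55.4 CPM in DMSO and 37.2 CPM in Idoxuridine, a log2 ratio of -0.57 (-0.68 to -0.47). Mrps26, a small subunit protein without a bacterial counterpart (chromosome 2, 130563742 to 130568695), was at 119 and 79.6 CPM, a log2 ratio of -0.57 (-0.64 to -0.50). Mrps18b, 1 of 3 homologues of bacterial bS18 (chromosome 17, 35910379 to 35916389), was at 232 and 157 CPM, a log2 ratio of -0.56 (-0.61 to -0.51). Mrpl36, the small zinc-binding bL36 homologue (chromosome 13, 73328513 to 73332178), was at 90.8 and 63.0 CPM, a log2 ratio of -0.53 (-0.61 to -0.45).

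Close behind were Mrpl1 (log2 ratio -0.47), a protein of the L1 stalk, Mrpl35 (-0.44), Mrpl12 of the other stalk (-0.42) and Mrpl19 (-0.41). Mrpl12 was at 329 CPM in DMSO and 246 CPM in Idoxuridine. Mrpl18, the highest member, was at 410 and 318 CPM.

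The 6 members that were higher with intervals apart encode short proteins, of 65 to 135 residues, and with TMM or median-of-ratios sizes 2 of them, Mrps21 and Mrps6, kept intervals apart. Mrps21 (chromosome 3, 95862634 to 95871519) was at 25.8 CPM in DMSO and 38.5 CPM in Idoxuridine, a log2 ratio of 0.57 (0.45 to 0.70), and was the member past 0.5 (0.49 with TMM or median-of-ratios sizes, which ends that call). Mrps6 (chromosome 16, 92058270 to 92112227), whose locus overlaps Slc5a3 on the same strand, was at 21.8 and 28.4 CPM, a log2 ratio of 0.38. Mrpl57 (0.23), Mrpl33 (0.20), Mrpl54 (0.17) and Mrps33 (0.14) made up the rest. Mrps18c, at 38.0 CPM in DMSO and 41.3 CPM in Idoxuridine, and Mrpl20, at 111 and 116 CPM, came next, with Poisson intervals that overlapped.

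The 3 homologues of bacterial bS18 differed from each other. Mrps18a and Mrps18b were lower in Idoxuridine, at log2 ratios of -0.30 and -0.56, and Mrps18c had a ratio of 0.12 (0.01 to 0.23). The conditional intervals of the 3 ratios did not overlap. In the assembled ribosome Mrps18b and Mrps18c belong to the small subunit, whereas the protein of Mrps18a sits in the large subunit.

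**Figure D2:**
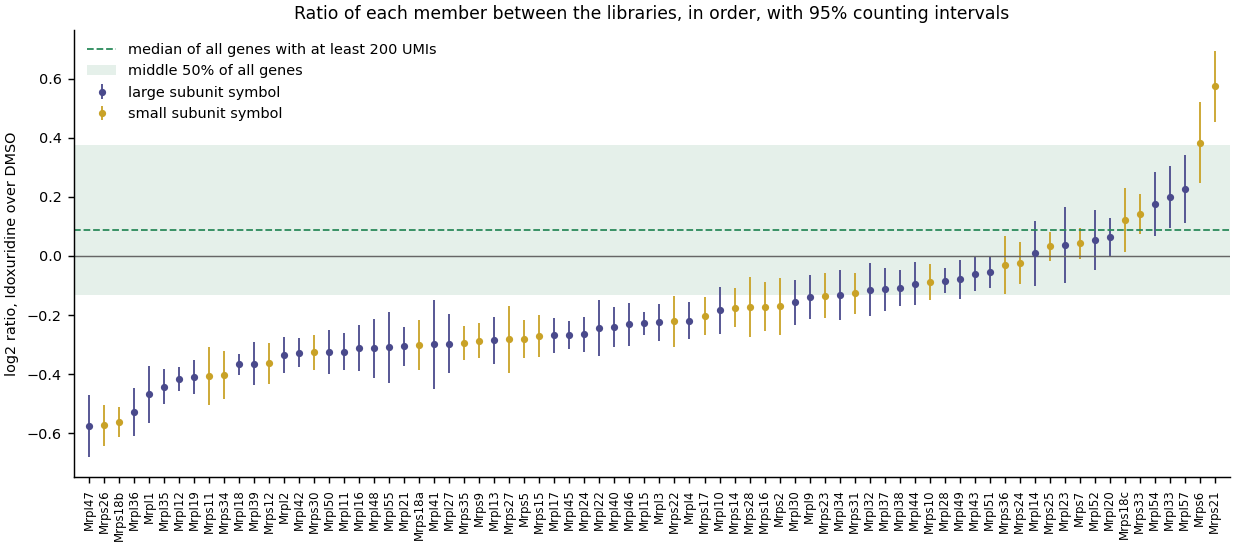
Log2 ratio of each member, Idoxuridine over DMSO, in order of the ratio, with 95% counting intervals and the colour giving the subunit of the symbol. The dashed line is the median of all genes with at least 200 UMIs, 0.09, and the band their middle 50%. The members run from -0.57 (Mrpl47) to 0.57 (Mrps21), and 63 of 76 points lie below 0.

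The ratio went with the length of the encoded protein among the members. Its correlation with log2 coding length was -0.44 over 76 members and 0.07 over all genes with an annotated length. The 23 members of up to 150 residues had a median ratio of -0.03, with 11 above 0, and the 53 longer members a median of -0.27, with 2 above 0 (Mrps25 and Mrps7). With TMM or median-of-ratios sizes 6 of the 13 members above 0, these 2 included, turned below 0. The split at 150 residues was chosen after the ratios were seen. The short members were also lower in level, at a median of 48.2 CPM against 107 CPM, and level and coding length correlated at 0.40 over the members. The ratio also correlated with log2 DMSO CPM, at -0.44 over the members and -0.48 over all genes with at least 200 UMIs. With log2 mean CPM of both libraries these correlations were -0.34 and -0.32. Length and level were not separated here. Mrpl36, with 102 residues and a ratio of -0.53, went against the pattern. Genes share the 2 libraries and are not independent replicates, so these correlations are descriptions.

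**Figure D3:**
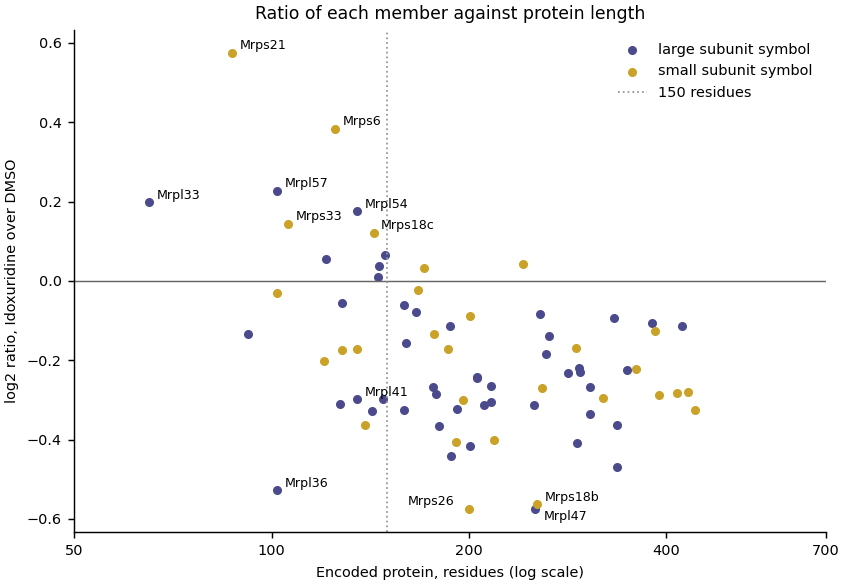
Log2 ratio of each of the 76 members, Idoxuridine over DMSO, against the number of residues of the encoded protein (log axis), coloured by subunit symbol. The dotted line marks 150 residues. Of the 13 members above 0, 11 lie to its left.

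Both subunits were lower in sum, and few of their genes passed 0.5, which 4.2% of all genes did in the lower and 18.8% in the higher direction. The 47 large subunit genes summed to 5494 CPM in DMSO and 4664 CPM in Idoxuridine, a log2 ratio of -0.24 (-0.25 to -0.23), and 2 of them were lower and 0 higher by at least 0.5. The 29 small subunit genes summed to 2870 and 2506 CPM, a log2 ratio of -0.20 (-0.21 to -0.18), with 2 lower and 1 higher. A large subunit gene had on average 117 CPM in DMSO and a small subunit gene 99.0 CPM, and 99.2 and 86.4 CPM in Idoxuridine.

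The ratio of large to small subunit UMIs was 1.91 in DMSO (exact binomial 95% interval 1.90 to 1.93) and 1.86 in Idoxuridine (1.84 to 1.88). The log2 difference of -0.04 (-0.06 to -0.02) was larger than counting error but much smaller than the shift both subunits had in common. Symbols and structure differ for 3 members. Mrps30 (log2 ratio -0.33) and Mrps18a encode proteins of the large subunit, and Mrps36 (-0.03) encodes a component of the 2-oxoglutarate dehydrogenase complex and not a ribosomal protein. Members with a bacterial counterpart (48 genes) and without one (27 genes) had median ratios of -0.24 and -0.22. Their sums differed more, at log2 ratios of -0.25 (-0.26 to -0.24) and -0.18 (-0.19 to -0.17).

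Spread between cells was measured after every cell was thinned to 23500 UMIs, which left 764 DMSO and 648 Idoxuridine cells. It is given as the Fano factor, variance divided by mean of the UMIs over cells, which equals 1 for pure counting noise. The members were near that value, with a median of 1.06 in DMSO and 1.11 in Idoxuridine, and the 7316 genes that averaged 0.25 UMI or more per thinned cell in both libraries had 1.08 and 1.14. The factor was higher in Idoxuridine for 60 of 76 members, close to the 79.2% of all genes, and the median log2 ratio of Fano factors was 0.05 for the members and 0.08 for all genes.

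The most spread members in DMSO were Mrpl18 (Fano factor 1.34), Mrpl42 (1.31), Mrpl12 (1.29), Mrpl28 (1.18) and Mrpl17 (1.18), and the first 4 of them are also among the 7 most abundant members in DMSO. Fano factor and log2 CPM correlated at 0.59 over the members in DMSO. The largest difference between libraries was that of Mrpl9, the bL9 homologue, with 1.06 in DMSO and 1.35 in Idoxuridine. Mrpl15 had 1.15 and 1.42, Mrpl38 1.06 and 1.25, Mrps36 1.07 and 1.25, Mrps7 1.01 and 1.18, and Mrpl44, which has an RNase III fold, 0.994 and 1.12. At the other end, Mrpl41 had 1.09 in DMSO and 0.982 in Idoxuridine, and Mrpl54, Mrps31, Mrps24, Mrpl47 and Mrpl33 were also lower in Idoxuridine. Cells are not replicates, so no error between cultures can be given for these factors.

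**Figure D4:**
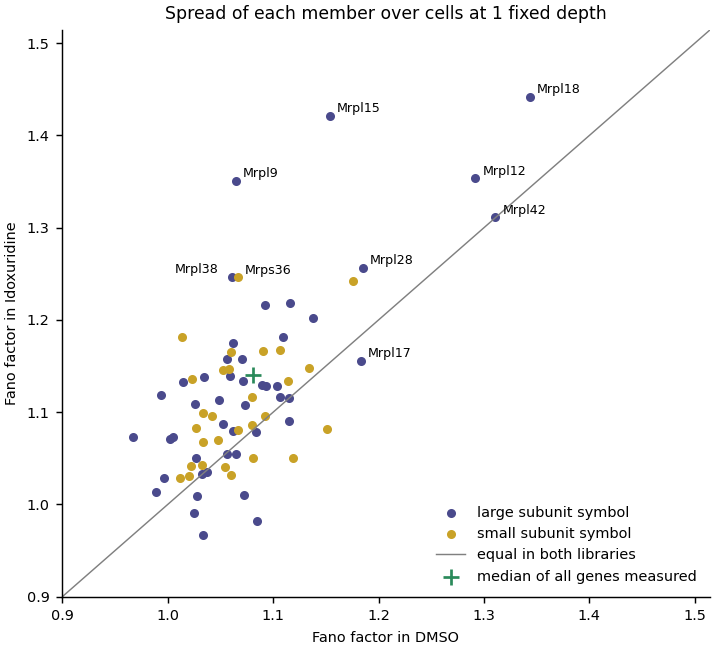
Fano factor of each member over cells thinned to 23500 UMIs, Idoxuridine (vertical) against DMSO (horizontal), coloured by subunit symbol. The line marks equal values and the cross the medians of all genes measured, 1.08 and 1.14. Of the 76 points, 60 lie above the line, and Mrpl9 and Mrpl15 lie farthest above it.

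Members varied together across cells only weakly as single genes. The mean Pearson correlation over 2850 member pairs was 0.018 in DMSO and 0.016 in Idoxuridine, and over all pairs of the 7316 genes it was 0.0013 in both. The 7316 genes were not matched to the members in level, and high counts raise a correlation in sparse data. Among cells of 30000 to 45000 UMIs the mean over the member pairs was 0.0083 in DMSO and 0.012 in Idoxuridine. Cytosolic ribosomal protein genes, which have far higher counts per cell, had 0.28 and 0.25, proteasome genes 0.047 and 0.046, and nuclear genes of the respiratory chain 0.037 and 0.034. The pair values correlated at 0.43 between the libraries. All cells of a library share its preparation and the fixed total of 23500 UMIs, and weak correlations in sparse counts carry little by themselves.

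Summing the members removed much of the counting noise. The sum had a Fano factor of 2.79 in DMSO and 2.72 in Idoxuridine, but 1.93 and 2.37 among cells of 30000 to 45000 UMIs, where the order of the libraries was the other way. Over all thinned cells its variance was 2.52 and 2.33 times the sum of the members' own variances. Its counting-corrected coefficient of variation was 9.68% and 10.2%. The summed large and summed small subunit genes correlated at 0.42 over 764 DMSO cells and 0.40 over 648 Idoxuridine cells, and at 0.94 and 0.89 after correction for counting. Cells with more transcripts of the 1 subunit thus tended to have more of the other, in both libraries. These cells were not matched in depth before thinning, and the summed members correlated with UMIs per cell before thinning at 0.54 and 0.40. By the same correction the summed members correlated with mitochondrial protein import genes at 0.75 in DMSO and 0.55 in Idoxuridine.

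**Figure D5:**
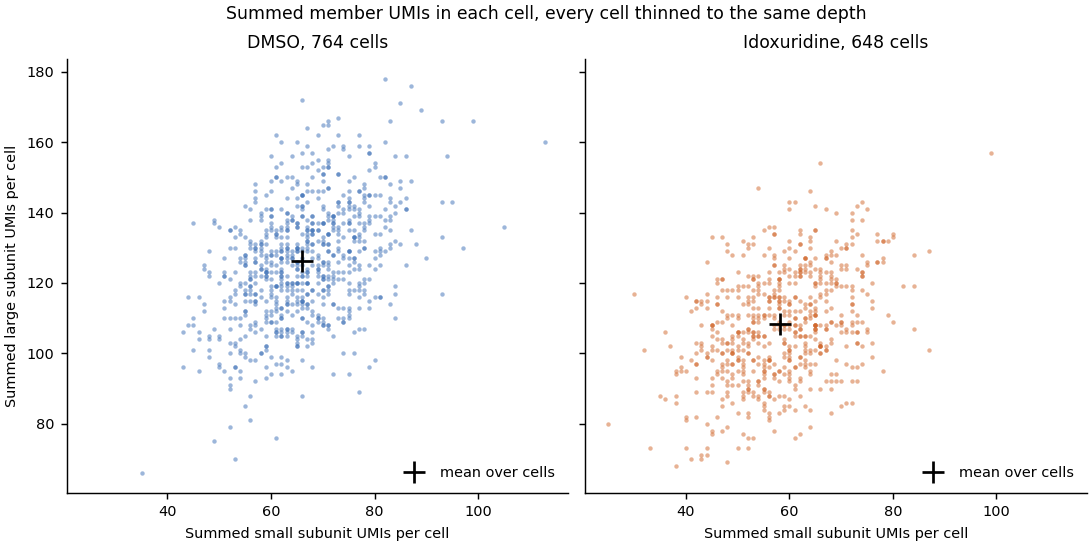
Summed large subunit UMIs (vertical) against summed small subunit UMIs (horizontal) in each cell, after 1 random thinning of every cell to 23500 UMIs, with 764 DMSO cells on the left and 648 Idoxuridine cells on the right. The crosses are means over cells, 126 large and 66.0 small UMIs in DMSO and 108 and 58.2 in Idoxuridine. In both clouds the sums rise together.

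The members most correlated with the sum of the others were Mrpl12 (0.35 in DMSO and 0.28 in Idoxuridine), Mrpl18 (0.27 and 0.25), Mrpl42 (0.27 and 0.21), Mrpl51 (0.19 and 0.20) and Mrpl11 (0.21 and 0.17). The pairs among Mrpl12, Mrpl18 and Mrpl42 were the 3 highest of all by their mean over both libraries, led by Mrpl12 with Mrpl18 at 0.21 and 0.16. At the low end stood Mrpl44 (-0.04 and 0.02), Mrps22 (-0.03 and 0.02) and Mrps27 (-0.01 and 0.01). These lack a bacterial counterpart, but so do Mrpl42 and Mrpl51 at the high end. High counts raise a correlation in sparse data, and the first 3 genes are abundant members.

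Per cell at the fixed depth, the summed members had a median of 192 UMIs in DMSO (10th to 90th percentile 164 to 223) and 167 UMIs in Idoxuridine (140 to 194). In Idoxuridine, 573 of 648 cells (88.4%, exact binomial 95% interval over cells 85.7 to 90.8) were below the DMSO median. That interval covers only the sampling of cells within the library and takes the DMSO median as fixed. Cells are not replicates, so the interval gives no error between cultures. The distributions overlapped, and the 10th percentile, the median and the 90th percentile were all lower in Idoxuridine.

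The summed members went with the depth and state of a cell. Their correlation with UMIs per cell before thinning was 0.54 in DMSO and 0.40 in Idoxuridine, and with nuclear-retained UMIs it was -0.39 and -0.30. Both quantities also differed between the libraries. The G2/M score had correlations of 0.21 and 0.25 and the S score -0.01 and 0.05. Cells called in S phase had a mean of 191 member UMIs in DMSO and 163 in Idoxuridine, and cells called in G2/M 195 and 170. The G2/M cells were also deeper before thinning, at means of 57385 UMIs in DMSO and 49022 in Idoxuridine, against 48744 and 40532 for S cells. Only 3 DMSO and 4 Idoxuridine cells were called in G1. Median S and G2/M scores were above 0 in both libraries, at 0.39 and 0.30 in DMSO and 0.35 and 0.33 in Idoxuridine. The calls were not checked against another measure of phase, so the true share of G1 cells is not known.

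The lower member level was also present among cells of matched depth, in comparisons added after the data were seen. Among cells of 30000 to 45000 UMIs (286 DMSO and 293 Idoxuridine cells) the summed members were 7955 and 6983 CPM, a log2 ratio of -0.19, with nuclear-retained transcripts at 3412 and 5260 CPM. Among cells of 45000 to 60000 UMIs (187 and 130 cells) they were 8139 and 7302 CPM, a log2 ratio of -0.16, and 57 of 76 members were below 0 in each of these comparisons, in which the medians of all genes were 0.06 and 0.05. In cells whose nuclear-retained share lay between the 10th and 90th percentile of the DMSO cells (649 and 437 cells), the sums were 8418 and 7365 CPM, a log2 ratio of -0.19, with nuclear-retained transcripts at 3216 and 3964 CPM. The ratio was thus smaller than the -0.22 of all cells in each comparison and kept its direction.

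Other sums were compared with the summed members in the same cells, corrected for counting. Mitochondrial protein import genes had correlations of 0.75 in DMSO and 0.55 in Idoxuridine, nuclear respiratory chain genes 0.52 and 0.32, proteasome genes 0.33 and 0.25, and cytosolic ribosomal protein genes 0.08 and 0.11. Mitochondrially encoded transcripts had -0.08 and -0.01. In DMSO that value rested on 1 cell with over 10% of its UMIs from mitochondrial genes, and it was 0.20 without this cell. Nuclear-retained transcripts had -0.51 and -0.39.

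Among 3584 other genes that averaged 1 UMI or more per thinned cell in both libraries, the 10 most correlated with the summed members (mean of both libraries) were H2afz, Eif5a, Ybx3, Ube2s, Oaz1, Erh, Ran, Phb2, Cfl1 and Ranbp1. H2afz, a histone H2A variant, led with 0.56 in DMSO and 0.41 in Idoxuridine, followed by Eif5a, a translation factor, with 0.49 and 0.37. Phb2, a prohibitin of the inner mitochondrial membrane, had 0.39 and 0.30. The median over the 3584 genes was 0.0030. The lowest values were those of the elongation factor genes Eef1a1 (-0.59 and -0.47) and Eef2 (-0.53 and -0.39). All cells share the fixed total of 23500 UMIs, and high counts raise a correlation in sparse data. In DMSO the 10 genes ran from 803 CPM (Ybx3) to 7022 CPM (H2afz). The part of level and of the fixed total in these values was not tested.

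The rest of the mitochondrial translation system was read from lists of genes with at least 200 UMIs. Each count of genes past 0.5 stands beside the 4.2% of all genes that were lower and the 18.8% that were higher. Counts with intervals apart at any size stand beside 22.5% of all genes lower and 39.1% higher. The 6 mitoribosomal proteins with other symbols all had ratios below 0, with a median of -0.14, none past 0.5 and 4 lower with intervals apart. Among them Ict1, a peptidyl-tRNA hydrolase built into the large subunit, was at 80.5 CPM in DMSO and 69.2 CPM in Idoxuridine, and Dap3, a GTP-binding protein of the small subunit, at 212 and 192 CPM. They stood lower in Idoxuridine, as most members did, by a smaller median.

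Of 26 genes for ribosome assembly and ribosomal RNA modification, 3 were lower by at least 0.5 (against 4.2% of all genes) and 0 higher (against 18.8%), with a median of -0.16. With intervals apart at any size, 13 were lower and 4 higher. Fastkd2, which is needed for large subunit assembly, was at 76.0 CPM in DMSO and 43.3 CPM in Idoxuridine, a log2 ratio of -0.81. Tfb1m, the dimethyltransferase of the small ribosomal RNA, was at 9.55 and 5.45 CPM (-0.81), and Ftsj2, a methyltransferase of the large ribosomal RNA, at 41.9 and 27.3 CPM (-0.62). Their point values lay beyond those of every member, although the intervals of Tfb1m and Ftsj2 overlapped that of Mrpl47.

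The 17 translation factor genes had a median of -0.25, with 14 below 0. With intervals apart at any size, 10 were lower and 0 higher. By at least 0.5, 1 was lower, Gatc of the glutamyl-tRNA amidotransferase, at 19.0 and 12.3 CPM (-0.63). Tsfm, the elongation factor that recharges mitochondrial EF-Tu, was at 189 CPM in DMSO and 143 CPM in Idoxuridine. The 17 mitochondrial aminoacyl-tRNA synthetases had a median of -0.03 and none past 0.5, with 3 lower and 3 higher by intervals apart. The 25 import genes had a median of -0.13, with Timm23 (-0.81) and Tomm5 (-0.51) lower by at least 0.5. With intervals apart at any size, 15 of the 25 were lower and 3 higher.

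The 19 genes for mitochondrial DNA transcription and RNA handling had a median of -0.10. By at least 0.5, Top1mt was higher (7.13 CPM in DMSO and 13.4 CPM in Idoxuridine) and Mterf2 and Hsd17b10 were lower. With intervals apart at any size, 8 of the 19 were lower and 4 higher. Hsd17b10, a subunit of mitochondrial RNase P, was at 189 and 114 CPM. The 16 regulators had a median of -0.03. By at least 0.5, Esrra, a nuclear receptor that activates genes of mitochondria, was higher (14.1 and 24.1 CPM), and its coactivator Ppargc1b was lower (8.60 and 5.02 CPM). With intervals apart at any size, 7 of the 16 were lower and 3 higher.

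The 13 messenger RNAs that the mitochondrial ribosome translates had a median ratio of 0.19, against 0.09 for all genes. Of them 3 were higher by at least 0.5, mt-Nd3 (0.73), mt-Nd5 (0.68) and mt-Nd4l (0.67), a share near the 18.8% of all genes. With intervals apart at any size, 10 of 13 were higher, against 39.1% of all genes. By the same rule 2 were lower, mt-Cytb (-0.24) and mt-Atp6 (-0.04), the 2 of 13 below 0. The 13 summed to 27116 CPM in DMSO and 28894 CPM in Idoxuridine, a log2 ratio of 0.09. Cytosolic ribosomal protein genes (84) had a median of 0.20 with 9 higher by at least 0.5, a smaller share than that of all genes. Nuclear respiratory chain genes (79) had a median of 0.01, which the shift of the other scalings turns below 0. Proteasome genes (36) had a median of -0.14 with none past 0.5. With intervals apart at any size, 23 of the 36 proteasome genes were lower and 5 higher. The same rule gave 13 lower and 66 higher cytosolic ribosomal protein genes, and 30 lower and 33 higher nuclear respiratory chain genes. A lower level by this rule was thus also common among proteasome genes.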

How the data were processed

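Single-cell RNA-seq of 1 DMSO and 1 Idoxuridine library was used. The deposited values are counts, whole-number UMIs per gene and cell, not normalized. Per the submitters' processing notes, Cell Ranger 2, Seurat and the build mm10 were used, in roles the notes do not state. Cell selection, alignment settings and the annotation release are not given in the sources used here. No barcode was removed, and no doublet caller was run.

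UMIs were summed per library and scaled to CPM with exact Poisson 95% intervals, and ratios have exact conditional binomial intervals. Thinning to 23500 UMIs used its exact expectation, and the scripts were tested on simulated data. The cells under this depth, 47 in DMSO (5.80%) and 94 in Idoxuridine (12.7%), were left out. Phases were called with scanpy 1.11.5 from Seurat 5.3.0 lists on 1 seeded draw. Other scalings came from edgeR 4.0.16 (TMM) and DESeq2 1.42.0 (median of ratios), used for library sizes only. Coordinates and lengths are those of GENCODE M21 on GRCm38, where 99.0% of gene identifiers were found, and similar transcripts were found with blastn 2.17.0 (at least 95% identity over 200 bases).

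Members and lists were chosen with earlier results of these data known. Subunit places and bacterial counterparts were assigned after the values were seen. Named members are the 5 highest and 3 lowest in DMSO level, the 8 highest and 8 lowest ratios, the 6 highest and 6 lowest Fano ratios, the 5 highest Fano factors, the 5 highest and 3 lowest correlations with the other members, and 9 listed for their role. Of other lists up to 4 genes with the largest ratios could be named. Genes outside this rule, among them Mrpl22, Mrpl52, Mrpl2, Mrpl43, Mrps25, Mrps34, Sars2, mt-Cytb and mt-Atp6, were named after their values were seen.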

Additional observations from a re-analysis of the deposited data

How the results depend on the processing

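The median member ratio stayed below 0 under every scaling, minimum and cell choice tried, between -0.32 and -0.17; its distance from the median of all genes cannot change with the scaling. TMM and median-of-ratios sizes moved all genes by -0.08 and -0.09, left 0 members past 0.5 higher in both cases, with Mrps21 at 0.49 and 0.49, and gave 6 and 7 lower; 6 members with small positive ratios (Mrpl20, Mrps25, Mrpl23, Mrpl52, Mrps7 and Mrpl14) turned below 0. With a size of 0.25, 34 members were lower and 2 higher. Cells of middle nuclear-retained share gave 2 lower members, and cells of 45000 to 60000 UMIs gave 2 higher. The large to small difference stayed between -0.05 and -0.03, and scalings cannot change it. Without thinning, 5 members had a higher Fano factor in Idoxuridine, the median log2 Fano ratio was -0.27, the mean pair correlation was 0.52 in DMSO and 0.42 in Idoxuridine, and the sum had a Fano factor of 124 and 82.2; those values include the spread of UMIs per cell. Among cells of 30000 to 45000 UMIs the mean pair correlation in DMSO was 0.0083, and the Fano factor of the sum was 1.93 in DMSO and 2.37 in Idoxuridine. Of the named members' ratios, 48 of 108 values left their counting interval under another scaling, none of a called member with a change of sign. No paired analysis was possible because each group holds 1 library. Depth limits the order of neighbouring members and any difference in pair correlations, and 1 library per group limits every comparison.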
